A study of Mus musculus with 12 samples.

Results

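The Fos and Jun genes of the AP-1 transcription factor family were followed through isolated mouse islets kept under treatments known to raise or lower the electrical activity of β cells. Members were the 7 genes whose name in the tables equals Fos, Fosb, Fosl1, Fosl2, Jun, Junb or Jund, out of 24503 genes in all, and all 7 were measured in every library and passed the filter on low counts in every fit. RNA was sequenced from 12 islet libraries in 6 groups, with islets of 2 mice, numbered 1 and 2, in each group. Wild-type C57BL/6 islets spent 4 h in 11 mM glucose, either with diazoxide added (11G+D), with FK506 added (11G+FK) or with nothing added (11G). The remaining wild-type group (2G) is called low glucose and untreated, with neither a concentration nor a time, so that comparisons with it also hold any effect of incubation. Diazoxide opens ATP-sensitive potassium channels and so hyperpolarizes the β-cell membrane, and FK506 inhibits calcineurin, a phosphatase switched on by calcium. Islets of C57BL/6 mice that carry channelrhodopsin-2 (ChR2), a light-gated cation channel, specifically in β cells received 40 min of light in on and off cycles with 5 min off (ChR2 light), or no light (ChR2 no light). Both ChR2 groups carry the transgene, whose promoter is not named in the labels, and ChR2 mice 1 and 2 are not the wild-type mice 1 and 2. No glucose concentration is given for the ChR2 islets, and wild-type islets under light were not analysed here.

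AP-1 is a dimer of basic leucine zipper proteins. Jun proteins can pair with each other or with a Fos protein, whereas Fos proteins bind DNA well only beside a Jun partner. Fos, Fosb and Junb are immediate early genes in many cell types, meaning that they are transcribed within minutes of a stimulus without new protein synthesis. In β cells, glucose closes ATP-sensitive potassium channels, the membrane depolarizes, and calcium entry reaches such promoters through CREB at cyclic AMP response elements and through serum response factor. Fosl1 (Fra-1) and Fosl2 (Fra-2) are Fos proteins that lack the strong activation domain of Fos and are commonly later and longer lived, and Jund is the Jun gene usually described as constitutively expressed.

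For the 5 members that passed a test in at least 1 comparison below, the 150 bases before the start site are shown. They are RefSeq sequences of mouse build GRCm38.p6, written in the direction of the gene, and 6 of the 7 members, all but Fosl1, were matched. The start site given in the tables equalled that of RefSeq for all 6. Capitals mark TGACG, the core of the cyclic AMP response element, and in Jun TGACATCA, a site of this promoter known to bind Jun dimers.
Fos, chr12:85473740-85473889, plus strand: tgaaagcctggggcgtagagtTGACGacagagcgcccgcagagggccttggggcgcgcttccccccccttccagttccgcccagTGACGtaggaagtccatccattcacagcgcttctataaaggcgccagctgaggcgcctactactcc
Fosb, chr7:19310046-19310195, minus strand: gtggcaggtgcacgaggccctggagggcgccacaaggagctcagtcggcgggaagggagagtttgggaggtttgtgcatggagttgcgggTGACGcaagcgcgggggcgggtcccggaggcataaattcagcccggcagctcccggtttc
Junb, chr8:84978749-84978898, minus strand: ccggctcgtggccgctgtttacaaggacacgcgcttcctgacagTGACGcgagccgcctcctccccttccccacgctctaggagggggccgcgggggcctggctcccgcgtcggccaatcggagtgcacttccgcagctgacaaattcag
Jun, chr4:95052223-95052372, minus strand: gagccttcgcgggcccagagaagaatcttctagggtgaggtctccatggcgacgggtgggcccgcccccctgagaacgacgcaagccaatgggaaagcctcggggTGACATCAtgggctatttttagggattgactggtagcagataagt
Fosl2, chr5:32136322-32136471, plus strand: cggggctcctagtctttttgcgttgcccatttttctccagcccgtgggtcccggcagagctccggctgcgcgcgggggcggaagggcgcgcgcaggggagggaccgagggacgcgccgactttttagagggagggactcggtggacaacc
TGACG lies at -129 to -125 and -66 to -62 from the start site of Fos, at -60 to -56 in Fosb and at -106 to -102 in Junb. It was found in 3 of the 6 members, against 13.4% of 32475 RefSeq windows of the same length with both strands searched. TGACATCA, which overlaps none of the other motifs searched in Jun, lies at -45 to -38 there. It was searched as a known site of this promoter, so its match in Jun was set beforehand. Of all windows 2.24% hold it. The full element TGACGTCA, present in 1.37% of windows, the AP-1 site TGACTCA, in 2.84%, and the CArG box of serum response factor, in 0.918%, had no match in any member's window. Fosl2 and Jund held none of the 5 motifs. Only exact matches within these 150 bases were searched, so an element further upstream or a looser match would not be seen.

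Of the Fos genes, Fos (ENSMUSG00000021250) lies at chr12:85473890-85477273 on the plus strand, Fosb (ENSMUSG00000003545) at chr7:19302721-19310045 on the minus strand, Fosl1 (ENSMUSG00000024912) at chr19:5447703-5455945 on the plus strand and Fosl2 (ENSMUSG00000029135) at chr5:32136472-32157831 on the plus strand. Of the Jun genes, Jun (ENSMUSG00000052684) lies at chr4:95049034-95052222 on the minus strand, Junb (ENSMUSG00000052837) at chr8:84976909-84978748 on the minus strand and Jund (ENSMUSG00000071076) at chr8:70697739-70700616 on the plus strand. These are the coordinates of the tables, whose build is not named. Jun alone overlaps another listed gene, its antisense transcript Junos, which had 14 to 106 counts per library against 2111 to 15067 for Jun. Whether reads were counted by strand is not stated, so reads of Jun and Junos cannot be told apart.

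Libraries held 15196061 to 22892255 counts in genes. The islet identity of all libraries was visible in 6 endocrine markers, which summed to 81601 to 125848 CPM (counts scaled to the library total) per library, with none at 0. Since islets were sequenced whole, fewer cells of a type and less RNA per cell cannot be told apart. Tests below are edgeR's quasi-likelihood tests with Benjamini-Hochberg adjustment over all genes (threshold 0.05), with the mouse as a block, and p-values rest on 2 mice per group. A log2 change is the first-named group over the second, ± its standard error. Shares of all genes called refer to the adjusted edgeR threshold.

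The summed level of the family was mostly Jun-type transcript. In FPKM (read counts scaled to gene length and library total, the unit in which genes are compared here), Junb was the highest member in all 6 groups, with group means between 214 ± 17.4 FPKM (11G+D) and 599 ± 95.1 FPKM (ChR2 light; mean ± SD, n = 2 throughout). Jund ranked 2 in 5 groups, at 73.9 ± 15.7 to 132 ± 25.1 FPKM, and ranked 3 in ChR2 light islets at 157 ± 4.28 FPKM, where Jun averaged 183 ± 82.4 FPKM. Fosb was the lowest member in 5 groups, at 1.006 ± 0.228 to 4.39 ± 0.680 FPKM. In ChR2 light islets it averaged 18.4 ± 10.3 FPKM, and Fosl1 was lowest at 9.56 ± 3.53 FPKM.

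The middle of the order changed with the condition. Fosl2 ranked 3 in 11G islets at 47.1 ± 8.94 FPKM, just above Jun at 44.4 ± 0.250 FPKM, a gap smaller than the spread of Fosl2. It ranked 4 in 11G+D islets at 15.2 ± 0.739 FPKM, where it did not stand apart from Fosl1 at 14.7 ± 0.630 FPKM, and 5 in 11G+FK and 2G islets. Fos ranked 6 in 11G+D, 11G+FK, 2G and ChR2 no light islets, 5 in 11G islets and 4 in ChR2 light islets. Neighbours such as Fosl1 at 29.4 ± 21.0 FPKM and Fosl2 at 22.8 ± 7.51 FPKM in 2G islets did not differ beyond their spread.

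**Figure D1:**
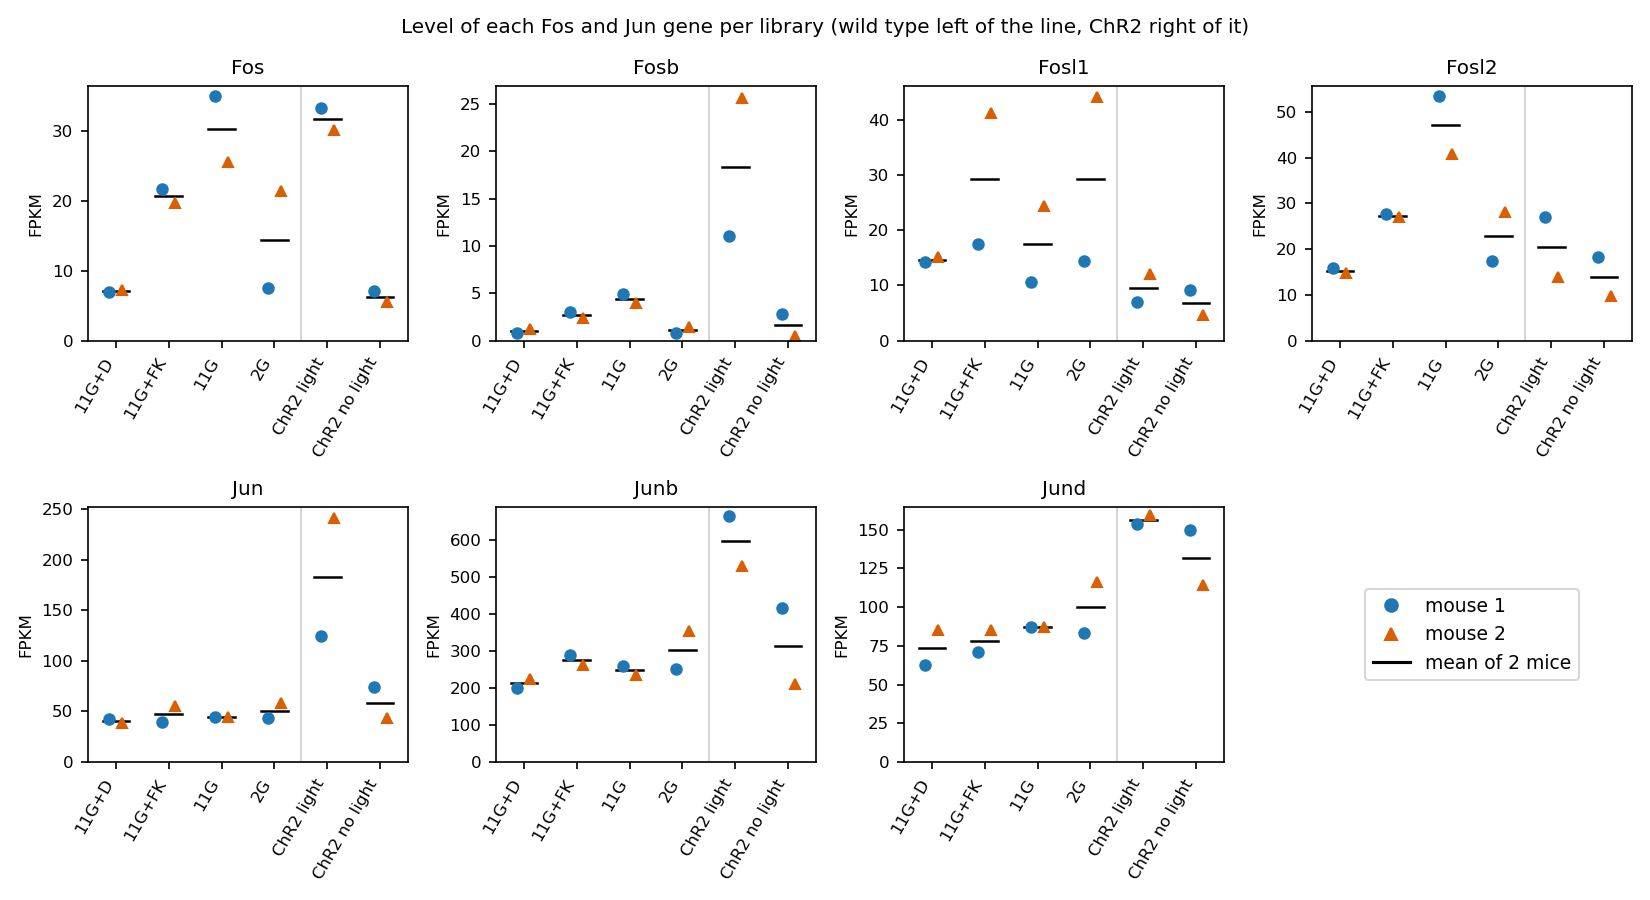
FPKM (linear axis) of each of the 7 genes in each library, 1 panel per gene and 1 point per mouse, in 6 groups from 11G+D on the left to ChR2 no light on the right. Fosb spans 0.478 to 25.6 FPKM, whereas Jund stays between 62.8 and 159.6 FPKM.

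The share of Fos-type transcripts in the summed FPKM of the 7 genes differed between the groups. The 4 Fos genes made up 11.0% and 9.88% of the sum in 11G+D islets of mice 1 and 2, 14.9% and 18.3% in 11G+FK islets, 20.9% and 20.5% in 11G islets, and 9.65% and 15.2% in 2G islets. Both 11G libraries were above all 6 other wild-type libraries. In ChR2 islets the share was 7.67% and 8.07% under light, against 5.47% and 5.23% without light, although the summed level itself was 1023 and 1014 FPKM under light, against 679 and 390 FPKM without. These shares are descriptions of 2 mice per group and were not tested.

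**Figure D2:**
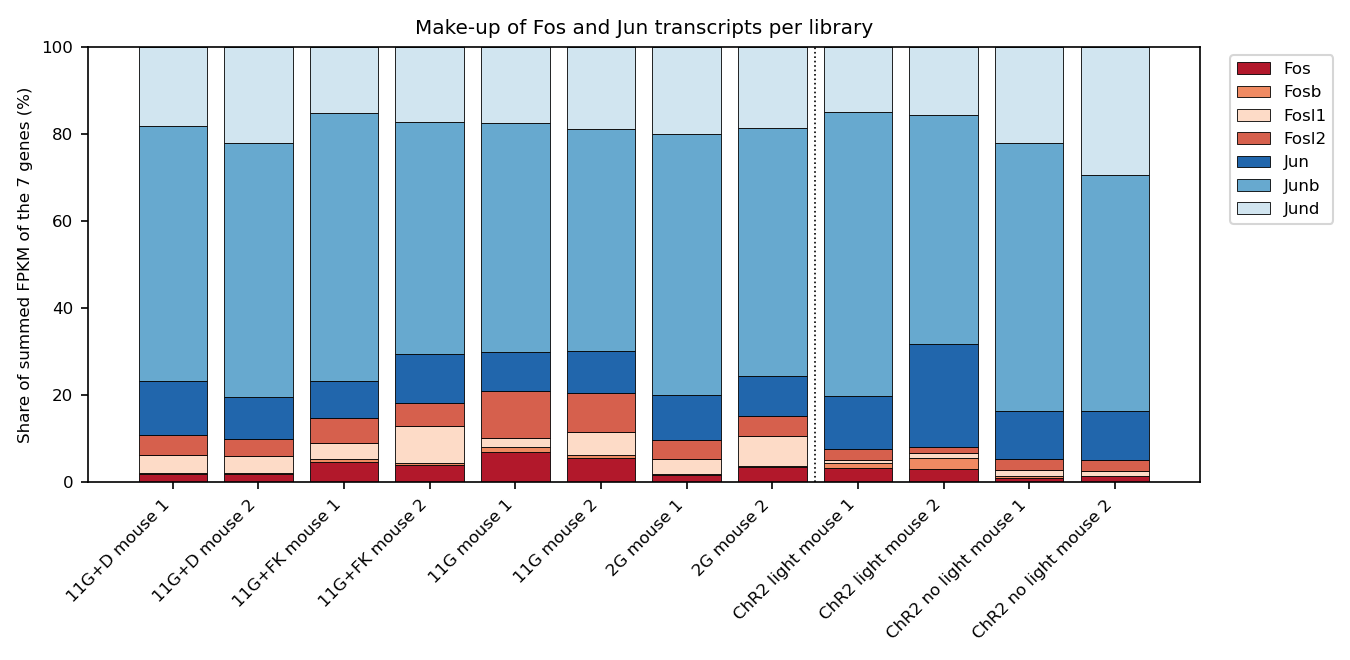
Percent of the summed FPKM of the 7 genes held by each gene, 1 stacked bar per library, in the order 11G+D, 11G+FK, 11G, 2G, ChR2 light and ChR2 no light. Junb takes 51.0% to 65.1% of every bar, and Jun takes 23.8% in the ChR2 light library of mouse 2.

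At 11 mM glucose, 2 of the 4 Fos genes rose relative to low glucose and no Jun gene passed the test. Fosb, encoding a Fos protein best known from stimulated neurons, had 4.87 and 3.91 FPKM in 11G islets of mice 1 and 2, against 0.777 and 1.43 FPKM in 2G islets. All 11G values lay above all 2G values, and the fitted change was 4.15-fold (log2 2.05 ± 0.34, edgeR adjusted p = 0.0124). Fosl2 had 53.5 and 40.8 FPKM in 11G islets, against 17.5 and 28.1 FPKM in 2G islets. Its groups did not overlap either, and it rose 2.15-fold (log2 1.11 ± 0.24, edgeR adjusted p = 0.0336). The background of genes called higher in this comparison was 3.13% of those tested, and 4.84% were called in either direction.

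The Fos change differed between the mice. It had 35.0 and 25.6 FPKM in 11G islets, against 7.51 and 21.4 FPKM in 2G islets. Both 11G libraries were higher than both 2G libraries, but the log2 change was 2.35 in mouse 1 and 0.22 in mouse 2, and the test over both did not pass (log2 1.18 ± 0.39, edgeR adjusted p = 0.109). Over the fits that leave out 1 library Fos ran from log2 0.40 to 2.18, the highest without the 2G library of mouse 2. With all low-count genes kept in the fit Fos passed (log2 1.18, edgeR adjusted p = 0.00197). That fit called 1672 genes in all, against 778 with the filter. Fosl1 had 10.5 and 24.3 FPKM in 11G islets, against 14.5 and 44.2 FPKM in 2G islets, lower in both mice with overlapping groups (log2 -0.65 ± 0.28, edgeR adjusted p = 0.197). Mouse 2 had the higher Fosl1 level at 2G, 11G and 11G+FK, whereas both mice had about the same level in 11G+D islets.

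None of the Jun genes passed, and their changes had opposite signs in the 2 mice. Jun, the first described AP-1 subunit, had 44.5 and 44.2 FPKM in 11G islets, against 43.2 and 58.3 FPKM in 2G islets (log2 -0.13, 95% interval -0.54 to 0.29). Junb had 261 and 235 FPKM in 11G islets, against 251 and 356 FPKM in 2G islets (log2 -0.23, 95% interval -0.70 to 0.24). Jund had 86.9 and 87.1 FPKM, against 83.5 and 116.5 FPKM (log2 -0.12, 95% interval -0.53 to 0.28). All 3 were slightly higher at 11G in mouse 1 and lower in mouse 2. The median log2 change was -0.12 over the 7 members and -0.01 over all genes.

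Markers of other cell types differed in the same comparison. Of 11 acinar markers tested, 9 were lower in 11G than in 2G islets (median log2 -2.08), and the 13 in the tables summed to 80.2 and 489 CPM in 11G islets, against 574 and 1098 in 2G islets. Ctrc and Amy2b were at 0 in the 11G library of mouse 1, and Amy2b was also at 0 in the 11G library of mouse 2 and the 2G library of mouse 1. Of 10 ductal markers 3 were lower (Krt7, Krt8 and Krt18), with a summed 2847 and 3059 CPM in 11G islets, against 2776 and 5504 in 2G islets, and of 10 stellate markers 1 was lower (Acta2), with a summed 91.3 and 162 against 135 and 249. None of these ductal or stellate markers was at 0, and none of 10 endothelial and 10 macrophage and immune markers passed. Of the 6 endocrine markers 1 was higher. Among the 6, Gcg had 10864 and 6191 FPKM in 11G islets, against 13402 and 2778 FPKM in 2G islets, lower in mouse 1 and higher in mouse 2. The part of these cell type markers in the AP-1 changes was not tested. Without the 11G library of mouse 1, no member passed in this comparison (Fosb log2 1.67, Fosl2 log2 0.74). Without the 2G library of mouse 1, Fosb still passed and Fosl2 did not, at log2 0.66, and in a fit without the mouse block neither passed (edgeR adjusted p = 0.0724 and 0.140). With all 12 libraries in 1 fit Fosb did not pass (log2 2.01, edgeR adjusted p = 0.0852).

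**Figure D3:**
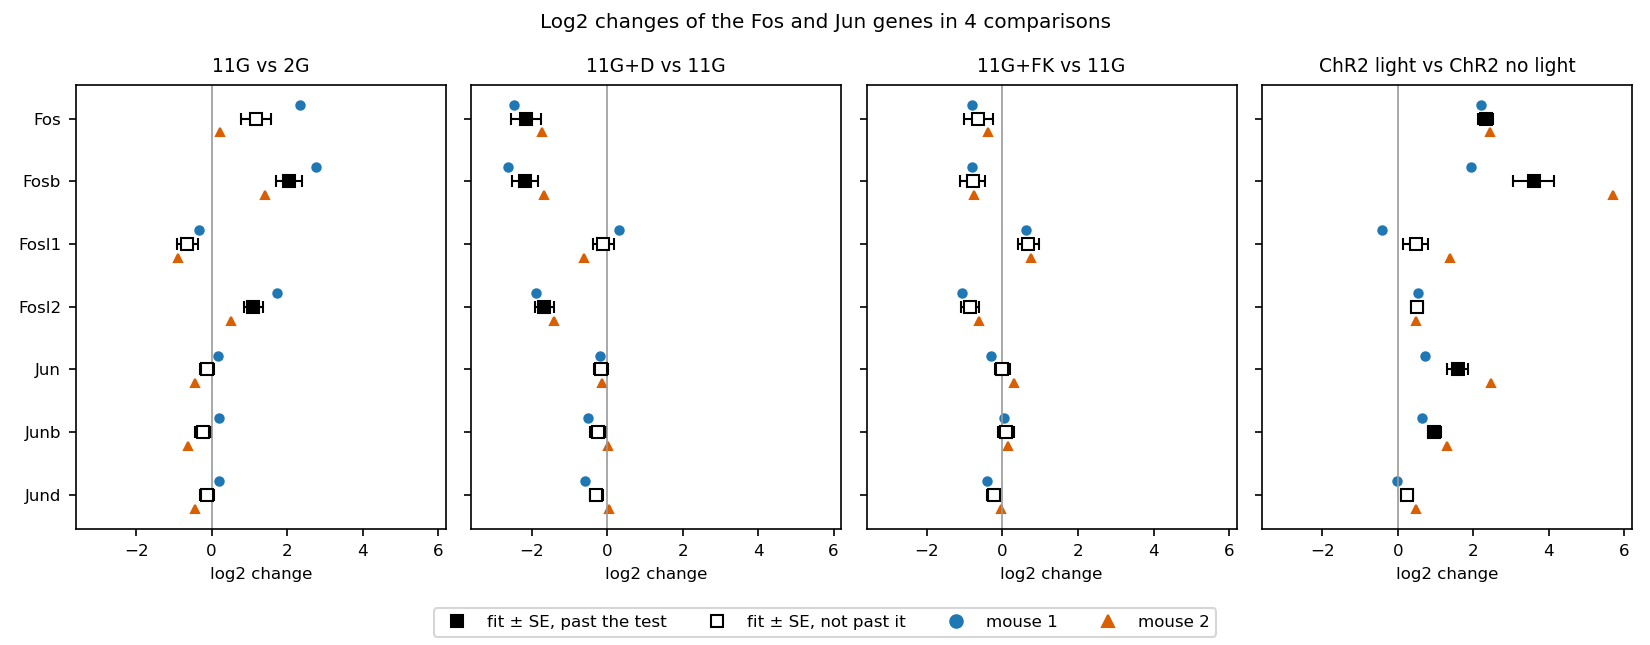
Log2 change of each of the 7 genes in 4 comparisons, each named group over the other, with the edgeR estimate ± its standard error (squares) and the change in mouse 1 (circles) and mouse 2 (triangles). Filled squares passed the adjusted p threshold of 0.05. Fosb, Fosl2 and Fos lie to the left with diazoxide, and Fosb, Fos, Jun and Junb to the right under light.

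With diazoxide at 11 mM glucose, 3 of the 4 Fos genes fell relative to 11G islets, and again no Jun gene passed. Fos fell to 6.91 and 7.27 FPKM in 11G+D islets, against 35.0 and 25.6 FPKM in 11G islets. The change was -2.15 ± 0.40 on the log2 scale (edgeR adjusted p = 0.0190) and went the same way in both mice, at -2.46 and -1.73. Fosb fell to 0.845 and 1.17 FPKM, against 4.87 and 3.91 FPKM (log2 -2.17 ± 0.35, edgeR adjusted p = 0.00997). Fosl2 fell to 15.7 and 14.7 FPKM, against 53.5 and 40.8 FPKM (log2 -1.66 ± 0.25, edgeR adjusted p = 0.00710). For each of the 3 genes both diazoxide libraries lay below both 11G libraries. Among all genes tested, edgeR called 2.46% lower and 3.79% in either direction, and the share with libraries apart in this way is not given here.

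Fosl1 did not move with the other Fos genes. It had 14.2 and 15.1 FPKM in 11G+D islets, against 10.5 and 24.3 FPKM in 11G islets, higher in mouse 1 and lower in mouse 2 (log2 -0.10, 95% interval -0.73 to 0.53). Jun had 42.7 and 38.1 FPKM in 11G+D islets, against 44.5 and 44.2 FPKM in 11G islets (log2 -0.16, 95% interval -0.57 to 0.26). Junb had 201 and 226 FPKM, against 261 and 235 FPKM, and Jund had 62.8 and 85.1 FPKM, against 86.9 and 87.1 FPKM. Their log2 changes were -0.25 ± 0.21 and -0.28 ± 0.18, with intervals of -0.72 to 0.22 and -0.69 to 0.12. The 11G libraries are the same ones as in the comparison with low glucose, so that an unusually high 11G value enters both.

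No acinar, ductal, endothelial, immune, stellate or endocrine marker passed the test between 11G+D and 11G islets. Acinar markers summed to 195 and 370 CPM in 11G+D islets, against 80.2 and 489 in 11G islets, and 10 of the 11 tested had a positive log2 change. All 10 stellate markers also had a positive one, with a summed 220 and 122 in 11G+D islets, against 91.3 and 162 in 11G islets. Fosl2 passed alone without the 11G+D library of mouse 1 (log2 -1.70, edgeR adjusted p = 0.0319) and alone in the fit without the mouse block (edgeR adjusted p = 0.0499). Without that 11G+D library Fos was at log2 -2.19 and Fosb at -1.88 (edgeR adjusted p = 0.0806 and 0.0637), and with all 12 libraries in 1 fit Fosb missed the threshold (edgeR adjusted p = 0.0892). Without the 11G library of mouse 1 none of the 3 passed, at log2 -1.56 for Fos, -1.78 for Fosb and -1.29 for Fosl2.

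Compared with low glucose rather than with 11G, no member passed in 11G+D islets, where edgeR called 5.22% of genes. DESeq2, with 1244 genes called in all against 840 in edgeR, called 0 members. Fosl1 changed by log2 -0.75 ± 0.28 and Junb by -0.48 ± 0.21. Fosb had 0.845 and 1.17 FPKM in 11G+D islets, against 0.777 and 1.43 FPKM in 2G islets (log2 -0.11, 95% interval -0.90 to 0.68). Fos had 6.91 and 7.27 FPKM, against 7.51 and 21.4 FPKM, and its log2 change of -0.97 ± 0.40 came almost wholly from mouse 2 (-0.11 in mouse 1, -1.52 in mouse 2). Fosl2 had 15.7 and 14.7 FPKM, against 17.5 and 28.1 FPKM (log2 -0.56 ± 0.24, edgeR adjusted p = 0.204). The fitted change was negative for all 7 genes, with a median of -0.48, against -0.02 over all genes. Without the 2G library of mouse 1, Fos (log2 -1.70) and Fosl2 (log2 -0.98) were called, and without the 11G+D library of mouse 1, Fosl1 was (log2 -1.35). Acinar markers were lower in 4 of 11 tested (median log2 -1.56), with the summed 195 and 370 CPM in 11G+D islets given above, against 574 and 1098 in 2G islets. Of 10 ductal markers 2 were lower (Krt7, log2 -1.07, and Krt8, log2 -1.06), and of 10 endothelial markers 1 was (Cldn5, log2 -1.15). The part of these markers was not tested.

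With FK506 at 11 mM glucose, no AP-1 member passed the test against 11G islets, in a comparison that called few genes at all (0.23% of those tested). Fosl2 had 27.6 and 26.9 FPKM in 11G+FK islets, against 53.5 and 40.8 FPKM in 11G islets. The groups did not overlap, and the log2 change was -0.87 ± 0.24 (-1.07 and -0.62 in mice 1 and 2; edgeR adjusted p = 0.242). DESeq2 called this decrease at the same size (log2 -0.87, DESeq2 adjusted p = 0.0262), in a fit that called 234 genes in all, against 37 in edgeR. Fosb had 2.98 and 2.34 FPKM, against 4.87 and 3.91 FPKM (log2 -0.79 ± 0.32, edgeR adjusted p = 0.418), and Fos had 21.7 and 19.7 FPKM, against 35.0 and 25.6 FPKM (log2 -0.64 ± 0.38, edgeR adjusted p = 0.556). For both genes the 11G+FK libraries lay below the 11G libraries.

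Fosl1 pointed the other way. It had 17.5 and 41.2 FPKM in 11G+FK islets, against 10.5 and 24.3 FPKM in 11G islets, higher in both mice by a similar step (0.62 and 0.74; log2 0.69 ± 0.28, edgeR adjusted p = 0.418) but with overlapping groups. The 95% intervals of the log2 change were -1.48 to 0.20 for Fos, -1.51 to -0.07 for Fosb, 0.06 to 1.31 for Fosl1 and -1.40 to -0.33 for Fosl2. No Jun gene passed. Jun had 39.2 and 55.0 FPKM in 11G+FK islets, against 44.5 and 44.2 FPKM in 11G islets (95% interval of the log2 change -0.42 to 0.42), Junb had 289 and 262 FPKM, against 261 and 235 FPKM (-0.39 to 0.55), and Jund had 71.2 and 85.4 FPKM, against 86.9 and 87.1 FPKM (-0.64 to 0.17).

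Set against diazoxide directly, FK506 islets had higher Fos-type values that missed the threshold. Fos had 21.7 and 19.7 FPKM in 11G+FK islets, against 6.91 and 7.27 FPKM in 11G+D islets (log2 1.51 ± 0.40, edgeR adjusted p = 0.106). Fosb had 2.98 and 2.34 FPKM, against 0.845 and 1.17 FPKM (log2 1.37 ± 0.35, edgeR adjusted p = 0.0983), and Fosl2 had 27.6 and 26.9 FPKM, against 15.7 and 14.7 FPKM (log2 0.80 ± 0.24, edgeR adjusted p = 0.155). Fosl1 had 17.5 and 41.2 FPKM, against 14.2 and 15.1 FPKM (log2 0.78 ± 0.28, edgeR adjusted p = 0.214). For all 4 Fos genes every 11G+FK library lay above every 11G+D library, and at unadjusted p under 0.05 the 4 were picked. The share of all genes that do either is not given here, so these counts have no background. DESeq2 called Fosb and Fosl2, and edgeR called 1.17% of genes at the adjusted threshold. Without the 11G+D library of mouse 1 Fosl1 passed (log2 1.40, edgeR adjusted p = 0.0191).

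Against low glucose, 11G+FK islets also had no member past the test, where 2.06% of genes were called. Fosb came nearest, with 2.98 and 2.34 FPKM in 11G+FK islets, against 0.777 and 1.43 FPKM in 2G islets (log2 1.26 ± 0.34, edgeR adjusted p = 0.0862). It was the only member DESeq2 called, in a fit that called 769 genes in all, against 332 in edgeR. Fos had 21.7 and 19.7 FPKM, against 7.51 and 21.4 FPKM, higher in mouse 1 and lower in mouse 2 (log2 0.54, 95% interval -0.32 to 1.40). Among the fits that leave out 1 library, Fos passed in that without the 2G library of mouse 2 (log2 1.57, edgeR adjusted p = 0.0328). Acinar markers were lower in 9 of 11 tested (median log2 -1.91), with a summed 96.1 and 443 CPM in 11G+FK islets, against 574 and 1098 in 2G islets. Of 10 ductal markers 1 was lower (Krt7, log2 -1.04), and of 10 stellate markers 1 was (Acta2, log2 -2.34, at 1.23 and 0.704 CPM, against 4.72 and 5.13). The part of these markers was not tested.

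Under light, 4 AP-1 members rose in ChR2 islets: Fos and Fosb among the Fos genes, Jun and Junb among the Jun genes. Fos had 33.3 and 30.3 FPKM in ChR2 light islets, against 7.06 and 5.50 FPKM in ChR2 no light islets. The mice moved by nearly the same step (log2 2.19 and 2.44), and the fitted change was 5.00-fold (log2 2.32 ± 0.20, edgeR adjusted p = 2.18e-05). Fosb had 11.1 and 25.6 FPKM, against 2.81 and 0.478 FPKM, which is 872 and 1883 counts under light, against 160 and 34 counts without. Its fitted change of 12.1-fold (log2 3.60 ± 0.55, edgeR adjusted p = 0.00266) ranked 6 of 15171 genes by size, and the mice differed widely, at log2 1.93 and 5.69. The 34 counts of Fosb without light in mouse 2 were the lowest of any member in any library. In this comparison 0.6% of genes tested were called higher and 0.844% in either direction.

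Jun had 124.7 and 241.2 FPKM under light, against 73.8 and 43.3 FPKM without light (log2 1.59 ± 0.28, edgeR adjusted p = 0.00867). The 3.01-fold change was again larger in mouse 2, at log2 2.47, than in mouse 1, at log2 0.71. Junb had 666 and 532 FPKM under light, against 418 and 212 FPKM without, a 1.96-fold change (log2 0.97 ± 0.18, edgeR adjusted p = 0.0123) with log2 steps of 0.63 and 1.31. For Fos, Fosb, Jun and Junb both light libraries lay above both libraries without light, and the share of all genes that do so is not given here. Junos, the transcript antisense to Jun, did not pass (log2 0.46 ± 0.48, edgeR adjusted p = 0.802), with 97 and 38 counts under light, against 25 and 52 without.

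The 3 other members did not pass. Fosl2 had 26.9 and 13.9 FPKM under light, against 18.2 and 9.83 FPKM without, with almost equal steps of 0.52 and 0.49 but overlapping groups (log2 0.51 ± 0.15, edgeR adjusted p = 0.150). Jund had 153.5 and 159.6 FPKM, against 149.8 and 114.3 FPKM (log2 0.23, 95% interval -0.11 to 0.57). Fosl1 had 7.07 and 12.1 FPKM, against 9.10 and 4.60 FPKM, lower in mouse 1 and higher in mouse 2 (log2 0.48, 95% interval -0.22 to 1.18). The median log2 change of the 7 members was 0.97, against 0.01 over all genes.

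The Fosb and Jun changes differed in size between the mice. In the authors' deposited table for mouse 2, which compares 1 library with 1 library, Fosb had a log2 change of 5.72 (adjusted p = 2.14e-22) and Jun one of 2.45 (adjusted p = 2.71e-05). In the authors' deposited table for mouse 1, Fosb had 1.93 (adjusted p = 0.00910) and Jun 0.71 (adjusted p = 1.0). Fos was past 0.05 in the authors' deposited table of each mouse (adjusted p = 0.00122 and 5.27e-05). Leaving out 1 ChR2 library was run in the fit of all 12, where the mouse block leaves the change resting on the other mouse alone. Without 1 or the other mouse 1 library, the log2 change was 5.71 to 5.72 for Fosb and 2.45 to 2.46 for Jun. It was 2.43 to 2.44 for Fos and 1.30 to 1.31 for Junb. Without 1 or the other mouse 2 library, Fosb lay at log2 1.92, Jun at 0.69, Fos at 2.18 and Junb at 0.61. These values restate the change of each mouse and were no separate check of the light calls. The fit of all 12 called no member with every library kept. The ratio of Fosb to Fos FPKM was 0.333 and 0.847 under light, against 0.398 and 0.0869 without, and that of Junb to Jun was 5.34 and 2.20, against 5.67 and 4.89.

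The light fit has 4 libraries and 1 residual degree of freedom, so its error borrows from the spread shared across genes. Without the mouse block no gene of any kind passed (Fos log2 2.31, edgeR adjusted p = 0.449). With all 12 libraries in 1 fit no member passed (edgeR adjusted p = 0.0806 for Fos, 0.111 for Fosb, 0.121 for Jun and 0.165 for Junb), and DESeq2 called Fos and Junb but neither Fosb nor Jun (DESeq2 adjusted p = 0.412 and 0.847).

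**Figure D4:**
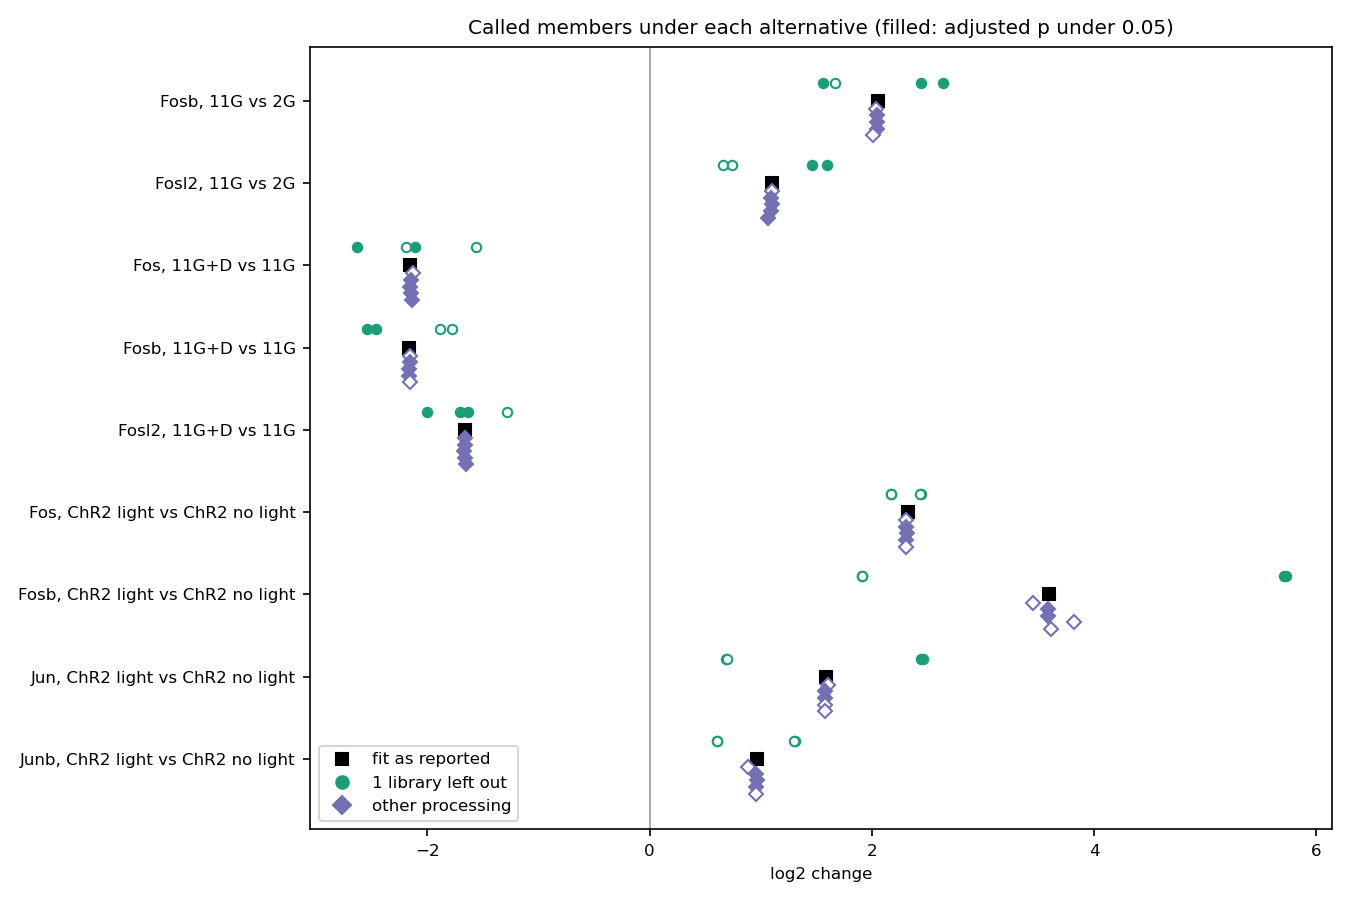
Log2 change of each gene called in a comparison, with the edgeR estimate (squares), the value after leaving out each library in turn (circles) and, from top to bottom, the value without the block, with RLE size factors, without the filter, with DESeq2 and with all 12 libraries in 1 fit (diamonds). Filled markers passed the threshold and open ones did not. All changes kept their direction, with Fosb under light running from 1.92 to 5.72. Under light each value after leaving out a library is that of the other mouse alone.

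Stress and cell type markers also differed under light. Of 12 heat shock genes, 4 rose (Hspa1b, Dnajb1, Bag3 and Hsph1), with a list median of 0.53 on the log2 scale, against 0.01 over all genes. The list summed to 5591 and 5188 CPM under light, against 4983 and 4399 without, and none of its genes was at 0. Hspa1b, an inducible Hsp70 gene with a near-identical copy in Hspa1a, so that its counts are uncertain, had 105 and 14.1 CPM under light, against 15.6 and 7.65 without. All 4 heat shock calls were lost with all 12 libraries in 1 fit and without the mouse block, and DESeq2 called Dnajb1 alone of the 4. Leaving out 1 library was run only within the fit of all 12, where it restates the change of the other mouse, so it was no separate check. Hspa1b was at log2 0.86 to 0.87 there without 1 or the other mouse 1 library, and at 2.73 without either of mouse 2. Of 10 endothelial markers 2 rose (Flt1 and Cdh5), with a summed 1314 and 1456 CPM under light, against 961 and 967 without. Of 11 acinar markers tested 1 fell (Cela3b), with a summed 416 and 63.3 under light, against 517 and 321 without. Ctrc and Amy2b were at 0 in the light library of mouse 2 and the no light library of mouse 1. None of 10 ductal, 10 stellate and 10 macrophage and immune markers passed. Their part in the AP-1 changes was not tested.

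Whether light and glucose changed the members unequally was tested in 1 fit of all 12 libraries, as the change under light minus the change at 11G. No member passed, and 0.591% of all genes did. The estimate was largest for Jun (log2 1.75 ± 0.45, edgeR adjusted p = 0.114) and was 1.23 ± 0.32 for Junb (edgeR adjusted p = 0.116), both near 0 or below for glucose and positive for light. It was 1.17 ± 0.52 for Fos, 1.60 ± 0.92 for Fosb and 1.16 for Fosl1 (edgeR adjusted p = 0.323, 0.444 and 0.341). Fosl2 alone had a negative value, -0.57, with an interval of -1.27 to 0.13. DESeq2 called Junb alone among the members, in a fit that called 426 genes in all, against 97 in edgeR. Over the 8 fits that leave out 1 library, the log2 value ran from 0.14 to 1.95 for Fos and from -0.14 to 3.72 for Fosb. It ran from 0.82 to 2.63 for Jun and from 0.83 to 1.58 for Junb. Where a ChR2 library was left out, the change under light rests on the other mouse alone. The pairs also differ in time (40 min of light, 4 h at 11G) and genotype, which cannot be told apart from the stimulus.

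Among 16 other basic leucine zipper genes that can pair with AP-1 proteins or share its sites, 15 were tested and few passed. Ddit3 (CHOP), a stress-induced factor, was lower in 11G than in 2G islets, at 191 and 305 CPM, against 464 and 586 (log2 -1.11 ± 0.18, edgeR adjusted p = 0.0116; CPM of single genes here and below also carry the TMM scaling of the fit), and lower in 11G+D than in 2G islets (log2 -1.65 ± 0.19, edgeR adjusted p = 0.00370). It was higher in 11G+FK than in 11G+D islets, at 335 and 656, against 142 and 194. Atf3, an early stress and activity gene whose protein pairs with Jun, rose under light, at 67.3 and 149 CPM, against 38.2 and 69.1 without (log2 0.97 ± 0.16, edgeR adjusted p = 0.00558). For Atf3 the change under light also exceeded that at 11G (log2 1.46 ± 0.25, edgeR adjusted p = 0.0324), a difference that passed in 1 of the 8 fits that leave out a library, that without the 2G library of mouse 1, and not without the mouse block (edgeR adjusted p = 0.634). At 11G over 2G Ddit3 did not pass without the 11G library of mouse 1 (log2 -1.07) or of mouse 2 (log2 -1.16), and for 11G+FK over 11G+D it did not pass without the 11G+FK library of mouse 1 (log2 1.74) or of mouse 2 (log2 1.26). No Ddit3 call held without the mouse block (edgeR adjusted p = 0.244 at 11G over 2G, 0.114 for 11G+D over 2G and 0.232 for 11G+FK over 11G+D). None of the 15 passed between 11G+D and 11G or between 11G+FK and 11G.

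Of 15 genes tested among serum response factor, its ETS partners, CREB and MEF2 factors, which act upstream of Fos and Jun promoters, 2 passed anywhere. Crem, whose short product ICER represses cyclic AMP responsive promoters, had 92.6 and 63.1 CPM in 11G islets, against 28.9 and 27.5 in 2G islets (log2 1.45 ± 0.20, edgeR adjusted p = 0.00474). It fell to 25.02 and 29.1 in 11G+D islets (log2 -1.499 ± 0.20, edgeR adjusted p = 0.00465) and to 34.0 and 25.3 in 11G+FK islets (log2 -1.39 ± 0.20, edgeR adjusted p = 0.0218), both against the same 11G libraries. The FK506 call was lost without the mouse block and without any 1 of the 4 libraries (log2 -1.60 to -1.16), and the other Crem calls without the 11G library of mouse 1 (log2 1.21 and -1.28). Srf, encoding serum response factor, was lower in 11G than in 2G islets, at 60.7 and 60.02 CPM, against 99.1 and 140.6 (log2 -0.97 ± 0.17, edgeR adjusted p = 0.0135). It was also lower against 2G islets in 11G+D islets (log2 -0.79) and in 11G+FK islets (log2 -0.77), and it did not pass under light. At 11G over 2G the Srf call held when the 2G library of mouse 1 was left out and ended when any of the other 3 was (log2 -1.11 to -0.76). The Srf calls for 11G+D over 2G and 11G+FK over 2G (edgeR adjusted p = 0.0305 and 0.0498) likewise held in 1 of 4 such fits each, that without the 2G library of mouse 1, and none of the 3 held without the mouse block (edgeR adjusted p = 0.107 to 0.222).

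Of 22 kinase, ligase and related genes that activate or degrade Jun and Fos proteins, Fbxw7 alone passed. Fbxw7 encodes a ubiquitin ligase subunit that marks Jun for degradation, and it was higher in 11G+D than in 2G islets and in no other comparison, at 71.0 and 78.3 CPM, against 47.9 and 37.3 (log2 0.83 ± 0.16, edgeR adjusted p = 0.0254). It did not pass without the mouse 2 library of 11G+D (log2 0.58) or of 2G (log2 0.72), nor without the mouse block (edgeR adjusted p = 0.146).

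Of 22 genes known from other systems as AP-1 targets, none rose in 11G over 2G islets and 2 were lower, the cytokine gene Il6 (log2 -0.81 ± 0.19) and the heme oxygenase gene Hmox1 (log2 -0.76 ± 0.18). Their edgeR adjusted p-values were 0.0411 and 0.0429, and the list median was -0.55. Between 11G+D and 11G islets the metallothionein genes Mt2 (log2 -1.78 ± 0.26, edgeR adjusted p = 0.00707) and Mt1 (log2 -1.71 ± 0.27, edgeR adjusted p = 0.00971) fell and Il6 rose (log2 0.84 ± 0.19, edgeR adjusted p = 0.0425). Mt2 and Mt1 were also lower against 2G islets in 11G+D islets (log2 -2.56 and -2.23) and in 11G+FK islets (log2 -1.45 and -1.32), and none of the 22 passed between 11G+FK and 11G islets. Under light 2 rose. Dusp1, a phosphatase that switches off MAP kinases, had 150 and 108 CPM, against 78.3 and 37.1 without light (log2 1.24 ± 0.17, edgeR adjusted p = 0.00142), and Mmp13, a collagenase gene, had 27.4 and 14.0, against 12.1 and 3.28 (log2 1.60 ± 0.27, edgeR adjusted p = 0.00718). The list median under light was 0.04, so the list as a whole lay near all genes. Il6 (log2 1.58 ± 0.29) and Hmox1 (log2 1.41 ± 0.25) had a greater change under light than at 11G (edgeR adjusted p = 0.0379 and 0.0348). Each of these differences passed in 1 of the 8 fits that leave out a library, that without the 2G library of mouse 1, and neither held without the mouse block (edgeR adjusted p = 0.262 and 0.469). The light calls of Atf3, Dusp1 and Mmp13 were lost without the mouse block and with all 12 libraries in 1 fit. Leaving out 1 library was run only within that fit, where it restates the change of the other mouse, so it was no separate check. The log2 changes there ran from 0.80 to 1.10 for Atf3, 0.92 to 1.54 for Dusp1 and 1.16 to 2.08 for Mmp13. At 11G over 2G, Hmox1 passed in 0 of the 4 fits that leave out a library (log2 -0.998 to -0.55) and Il6 in 1, that without the 2G library of mouse 1 (log2 -0.87 to -0.48 in the other 3). For 11G+D over 11G, Il6 passed in 1, that without the 11G+D library of mouse 2 (log2 0.62 to 0.89 in the other 3), and Mt2 (log2 -1.47) and Mt1 (log2 -1.37) failed without the 11G library of mouse 1. For 11G+FK over 2G, Mt2 passed in 1, that without the 2G library of mouse 2, and Mt1 in 0 (log2 -1.60 to -1.31 and -1.40 to -1.25). No call of Il6, Hmox1, Mt1 or Mt2 held without the mouse block (edgeR adjusted p = 0.0536 to 0.469).

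The members did not all share 1 pattern across the 8 wild-type libraries. Likeness was the root mean square difference of log2 CPM, centred within each mouse, over those libraries among 11696 genes, so that smaller is closer. The genes nearest to Fos were Fosl2 (0.316), the antisense transcript Junos (0.325) and Fosb (0.373), against a spread of Fos itself of 0.878. Fosb lay nearest to Slco5a1 (0.24), Samd13 (0.271) and Npas2 (0.293), and Fosl2 nearest to Slc6a8 (0.132), Tubb4b and Hsd3b7 (both 0.208). Fosl1 lay nearest to Soat2 (0.0624), Myc (0.105) and Inf2 (0.108), with a spread of its own of 0.455. The Jun genes varied least, with spreads of 0.177 for Jun, 0.234 for Junb and 0.21 for Jund, so nearness to them says little. Nearest to them were Nelfcd (0.0742), Adm2 (0.0646) and Zfp628 (0.0577). In both mice Fos, Fosb and Fosl2 were highest at 11G, next with FK506 and lowest of these 3 groups with diazoxide.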

How the data were processed

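Total RNA of isolated islets was sequenced in 12 libraries by a commercial provider, per the labels' protocols. Aligner, counter, strand setting and build are not named there. The authors deposited 8 tables, each of 2 libraries of 1 mouse. Per the file headers, they hold, for each gene, raw read counts, FPKM values, normalized counts (a signal), and a log2 fold change with its raw and adjusted p-value, from an unnamed test. The authors' log2 fold changes put the treated library on top in mouse 1 and ChR2 tables and below in wild-type mouse 2 tables. Deposited FPKM equalled counts scaled to gene length and table total within 0.001, and the normalized counts were constant multiples of the raw ones within 1e-06. Counts of the 11G library differed at 0 genes between its 3 tables. A gene missing from the tables of a mouse was taken as 0, since the lowest row sum was 1. Column codes were matched to samples through table headings and mouse numbers.

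Counts were tested with edgeR 4.0.16 (R 4.3.3): TMM, filterByExpr (count 10, total 15), glmQLFit and glmQLFTest with the mouse as a block, two-sided, Benjamini-Hochberg over all genes, threshold 0.05. The 8 wild-type libraries (16087 genes, 3 residual degrees of freedom), the 4 ChR2 libraries (15171 genes, 1) and all 12 (16418 genes, 4) were fitted separately. A standard error is the log2 change over the square root of F. The labels give 1 mouse number to islets of several conditions, and same-numbered libraries deviated together (r across genes 0.145 to 0.456 in wild type, 0.503 in ChR2). Changes per mouse used log2 CPM with a prior count of 1. Alternatives were no block, RLE size factors, no filter, DESeq2 1.42.0, a joint fit of all 12 libraries, and fits that drop 1 library at a time. Scripts were tested on simulated data. The 7 members, the gene lists and the rule for named genes (all members, and at most 5 genes per list and comparison past the threshold) were chosen with earlier results of these data known. Likeness was limited to genes averaging 1 FPKM or more. A gene of the leucine zipper list is counted there but not reported here.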

Additional observations from a re-analysis of the deposited data

How the results depend on the processing

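The number of AP-1 members called moved as follows. Without the mouse block it was 0 at 11G over 2G (2 with it), 1 for 11G+D over 11G (3 with it) and 0 for light (4 with it), while the genes called in all were 68, 59 and 0, against 778, 610 and 128 with it. With all 12 libraries in 1 fit it was 1 at 11G over 2G, 2 for 11G+D over 11G and 0 for light. DESeq2 called 1 member for 11G+FK over 11G, 1 for 11G+FK over 2G, 2 for 11G+FK over 11G+D, 2 for light and 1 for light minus glucose. In the same order it called 234, 769, 493, 86 and 426 genes in all, against 37, 332, 188, 128 and 97 in the fits reported above. Without the filter on low counts the numbers were 3 at 11G over 2G, 1 for 11G+FK over 11G, 2 for 11G+D over 2G, 1 for 11G+FK over 2G, 4 for 11G+FK over 11G+D and 5 for light minus glucose. The genes called in all rose as well, to 1672, 309, 1573, 992, 617 and 659 in the same order, against 778, 37, 840, 332, 188 and 97. Under light 419 genes were called in all, against 128, and the number of members stayed at 4. RLE size factors moved no count of members; under light they called 125 genes higher and 66 lower, against 91 and 37 with TMM. Leaving out 1 library gave 0 to 3 members at 11G over 2G and for 11G+D over 11G, 0 for 11G+FK over 11G, 0 to 2 for 11G+D over 2G, for light and for light minus glucose, and 0 to 1 for 11G+FK over 2G and for 11G+FK over 11G+D. For light this was done within the fit of all 12 libraries, where the lone library is taken to vary like the other groups. There the mouse block leaves the change resting on 1 mouse, and the error comes from the wild-type libraries. The light numbers were therefore no separate check.

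All members called kept their direction in all alternatives run. Changes of sign were among members that were not called. Jun for 11G+FK over 11G was -0.00714 with RLE size factors, -0.00717 with DESeq2, -0.00044 without the filter and -9.8e-05 in the fit of all 12 libraries. Fosl1 for 11G+FK over 2G was -0.032 without the block and -0.00515 in the fit of all 12 libraries. Over the fits that leave out 1 library, log2 changes that crossed 0 were, for Jun, -0.34 to 0.074 (11G over 2G), -0.36 to 0.049 (11G+D over 11G), -0.21 to 0.20 (11G+FK over 11G), -0.33 to 0.080 (11G+FK over 2G) and -0.030 to 0.34 (11G+FK over 11G+D). For Junb they were -0.53 to 0.087 (11G over 2G), -0.14 to 0.32 (11G+FK over 11G) and -0.45 to 0.17 (11G+FK over 2G), and for Jund -0.40 to 0.14 (11G over 2G), -0.49 to 0.034 (11G+FK over 11G), -0.10 to 0.20 (11G+FK over 11G+D) and -0.030 to 0.46 (light). For Fos they were -1.70 to 0.079 (11G+D over 2G) and -0.21 to 1.57 (11G+FK over 2G), for Fosb -0.57 to 0.50 (11G+D over 2G) and -0.14 to 3.72 (light minus glucose), for Fosl2 -0.19 to 0.74 (11G+FK over 2G), and for Fosl1 -0.72 to 0.43 (11G+D over 11G), -0.34 to 0.49 (11G+FK over 2G) and -0.43 to 1.37 (light). With 2 mice per group, the cause of these moves was not tested.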
